A study of Rattus norvegicus with 6 samples.

Results

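The 9 genes described here restrain cell division or are tied to the tumour suppressor p53: the cyclin-dependent kinase inhibitors Cdkn1a (p21), Cdkn1b (p27) and Cdkn1c (p57), the stress proteins Gadd45a, Gadd45b and Gadd45g, the antiproliferative factor Btg2, the kinase Plk3 and the p53 ubiquitin ligase Mdm2. They were chosen by symbol, from the results of CKD against Sham in these same data. Their fold changes and p-values are therefore a description and no independent support. Each of the 9 symbols stood in 1 row of the 31368 genes in the deposited table, so the provision for repeated symbols was not needed. All 9 passed the filter on low counts, as did 15371 genes in all.

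The samples were renal tissue of WT male Sprague-Dawley rats, with a chronic kidney disease (CKD) model set up at 8 weeks of age and Sham animals as controls. How the disease was induced, the time from then to collection and whether each library came from its own animal were not given in the sources used here. Bulk RNA was sequenced in 3 Sham and 3 CKD libraries, with 15918035 to 17503644 assigned counts each. P-values here reflect only how far these libraries spread, which may be technical, and in bulk tissue fewer cells of a type and less RNA per cell cannot be told apart.

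In dividing and stressed cells, p53 turns on Cdkn1a, which blocks the cyclin-dependent kinases of G1, and Mdm2, which in turn marks p53 for breakdown. GADD45 proteins are small stress sensors that bind MAP kinase kinase kinases, PCNA and CDK1. Several of these genes are also fast-response genes, induced by growth factors, cytokines or hormones without p53. In the kidney, p21 is known from tubular injury and senescence, and p57 marks mature podocytes.

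Among the 9 genes, 6 were lower in CKD by edgeR's quasi-likelihood test with Benjamini-Hochberg adjustment over all genes tested: Cdkn1a, Gadd45a, Gadd45b, Gadd45g, Btg2 and Plk3. DESeq2 called these 6 and Mdm2 lower. In limma-voom, with or without library weights, only 4 passed (Cdkn1a, Gadd45a, Gadd45g and Plk3), and Gadd45b and Btg2 did not. None of the 9 genes was higher at an adjusted p under 0.05 in edgeR, DESeq2 and limma-voom. At an unadjusted p under 0.05, 0 were higher with all libraries in DESeq2, or in edgeR and unweighted limma-voom with TMM scaling. At that unadjusted p, Cdkn1b and Cdkn1c were higher in edgeR with library totals alone, and Cdkn1c was higher with library weights in limma-voom and, in edgeR, without Sham 2. Over all genes edgeR at an adjusted p under 0.05 called 3.82% of those tested, 1.15% lower and 2.67% higher. At an unadjusted p under 0.05 it held 3655 of the 15371 genes, and DESeq2 called 2440 of 18045. Nothing is read from the members' count, since this contrast chose them. The CKD libraries lay wholly below the Sham libraries in 7 of the 9 genes, the 6 above and Mdm2, and overlapped them in Cdkn1b and Cdkn1c. With library totals as the only scaling, the median over all genes moved to 0.41 and the share of calls that were higher from 70% to 91.9%, and the same 6 genes passed. That share was 55.6% in DESeq2, 38.2% in limma-voom with library weights and 46.1% without Sham 1. Separation of the groups without overlap was seen in 31.2% of all genes tested, 12.4% with CKD lower and 18.8% with CKD higher. The median log2 fold change (CKD minus Sham) was -2.06 over the 9 genes and -0.01 over all genes.

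**Figure D1:**
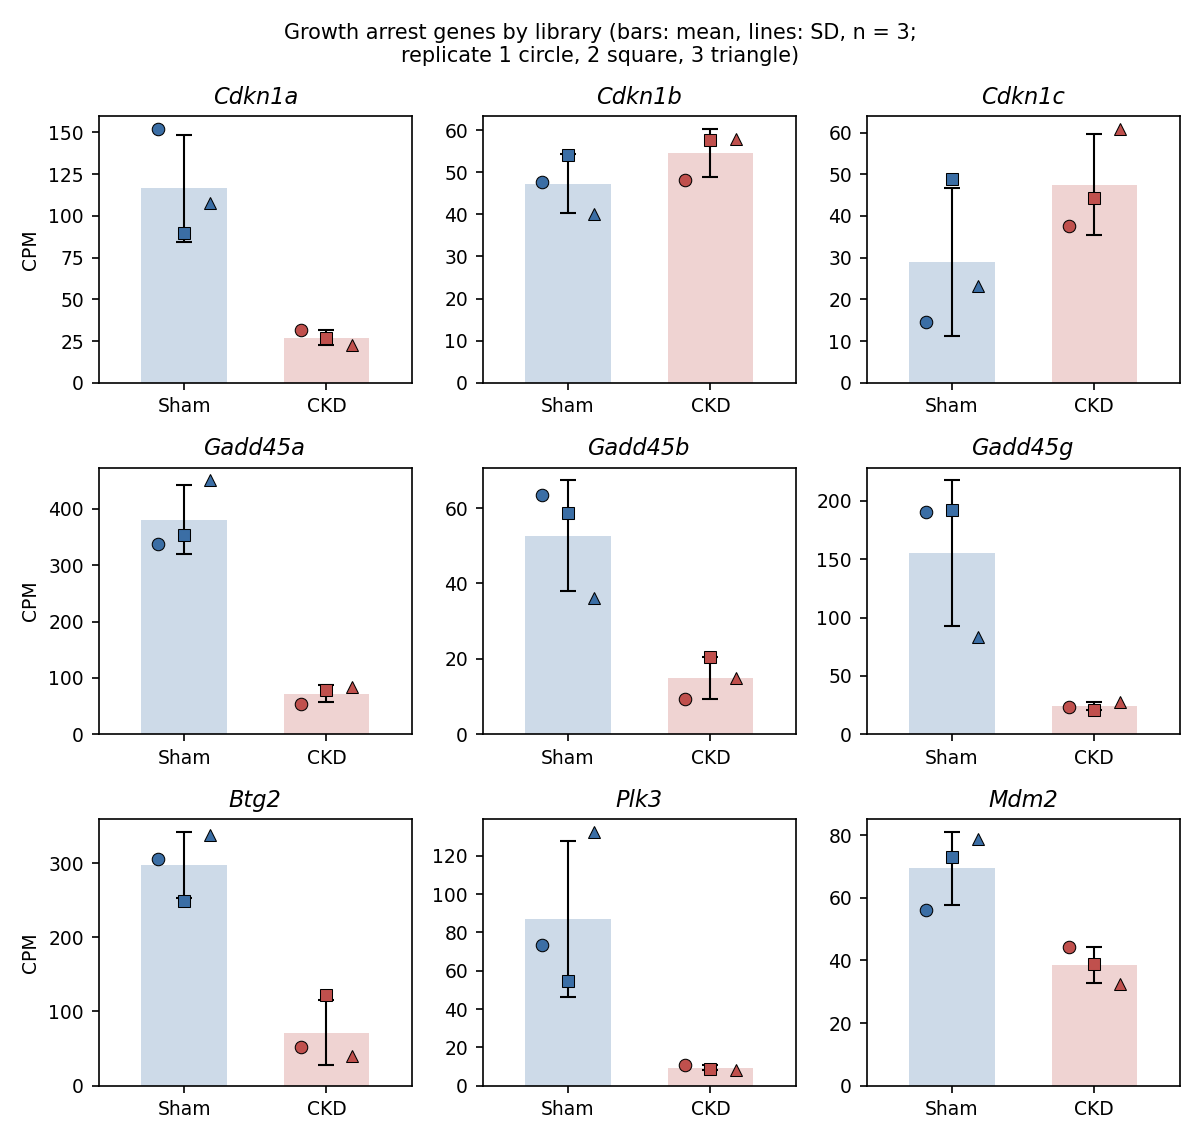
Level of each gene in CPM (counts scaled to library size, y axis from 0, its own scale in each panel) in the Sham and CKD libraries, with the mean (bar), the SD (line, n = 3) and each library as a point (replicate 1 circle, 2 square, 3 triangle). The CKD points lie below all Sham points in 7 panels and overlap them in those of Cdkn1b and Cdkn1c.

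To show what the genes that moved together share in sequence, the 210 bases before the annotated start are printed for the 6 lower genes, with Cdkn1b, whose level did not pass the test, for contrast. The sequences are from RefSeq on build GRCr8, 5′ to 3′ on the gene's own strand; 8 of the 9 genes had an entry, and Cdkn1c had none. Capitals mark matches, on either strand, to the CCAAT box (CCAAT), the GC box (GGGCGG), the TATA box (TATAAA), the core of the cyclic AMP response element (TGACG), its full form (TGACGTCA, which holds the core), the E-box (CACGTG) and the p53 decamer.
Cdkn1a, chr20:7150722-7150931, plus strand: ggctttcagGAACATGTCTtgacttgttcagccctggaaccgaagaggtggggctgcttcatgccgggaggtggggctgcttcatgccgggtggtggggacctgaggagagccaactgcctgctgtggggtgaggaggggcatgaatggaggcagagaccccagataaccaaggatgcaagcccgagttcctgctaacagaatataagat
Gadd45a, chr4:97486800-97487009, minus strand: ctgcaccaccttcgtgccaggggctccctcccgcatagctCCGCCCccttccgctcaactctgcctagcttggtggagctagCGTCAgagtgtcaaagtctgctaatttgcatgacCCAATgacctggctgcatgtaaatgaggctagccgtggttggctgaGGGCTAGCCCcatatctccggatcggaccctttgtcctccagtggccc
Gadd45b, chr7:9430719-9430928, minus strand: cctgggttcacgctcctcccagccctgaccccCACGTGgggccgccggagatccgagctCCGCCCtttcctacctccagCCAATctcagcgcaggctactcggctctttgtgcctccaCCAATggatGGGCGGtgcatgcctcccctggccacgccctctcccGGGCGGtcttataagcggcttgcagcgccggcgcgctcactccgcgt
Gadd45g, chr17:13530352-13530561, minus strand: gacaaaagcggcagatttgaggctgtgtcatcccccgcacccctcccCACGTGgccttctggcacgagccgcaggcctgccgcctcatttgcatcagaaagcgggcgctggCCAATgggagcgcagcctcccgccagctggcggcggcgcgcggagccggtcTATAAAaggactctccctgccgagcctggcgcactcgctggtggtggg
Btg2, chr13:48087691-48087900, minus strand: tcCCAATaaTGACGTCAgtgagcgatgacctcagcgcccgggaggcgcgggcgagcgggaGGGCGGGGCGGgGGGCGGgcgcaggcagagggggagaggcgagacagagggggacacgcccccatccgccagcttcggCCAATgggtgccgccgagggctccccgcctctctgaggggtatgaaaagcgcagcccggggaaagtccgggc
Plk3, chr5:135848901-135849110, minus strand: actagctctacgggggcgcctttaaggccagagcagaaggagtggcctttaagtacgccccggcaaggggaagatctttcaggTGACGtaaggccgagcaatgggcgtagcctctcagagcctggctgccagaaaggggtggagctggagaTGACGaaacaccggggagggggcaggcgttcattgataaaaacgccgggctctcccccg
Cdkn1b, chr4:169491294-169491503, plus strand: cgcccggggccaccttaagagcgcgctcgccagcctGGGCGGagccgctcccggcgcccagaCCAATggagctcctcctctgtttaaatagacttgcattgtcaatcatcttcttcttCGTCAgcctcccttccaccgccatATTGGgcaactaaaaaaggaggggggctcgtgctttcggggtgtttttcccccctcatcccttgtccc

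The counts of matches are over the 250 bases before the start in the 8 genes with a sequence, and in the 33469 such windows of the RefSeq table. The CRE core stood in 6 of the 8 (Cdkn1a, Cdkn1b, Gadd45a, Btg2, Plk3 and Mdm2), and in 18.2% of all windows. Btg2 alone of the 8 held the full TGACGTCA, from 201 to 194 bases before its start, as did 1.59% of all windows. The 3 GADD45 genes each held a CCAAT box, the one nearest the start at 94 to 90 bases before the start in Gadd45a, 92 to 88 in Gadd45b and 99 to 95 in Gadd45g. That box was also found in Cdkn1b, Btg2 and Mdm2, and in 34% of all windows. The p53 decamer was read as purines, C, letters that are each A or T, G and pyrimidines. It was matched in Cdkn1a from 201 to 192 bases before the start and in Gadd45a from 48 to 39, against 6.64% of all windows. Such a match is of letters only, and p53 binding was not measured. Only a single decamer was searched for, not a pair of them side by side. A single annotated start per gene was read, so a gene's other starts were not examined. GC boxes were matched in 5 of the 8 and 30.5% of all, an E-box in Gadd45b and Gadd45g and 5.59% of all, and a TATA box in Gadd45g and 12.9% of all. The AP-1 site TGANTCA and the CArG box were matched in 0 of the 8, and in 6.34% and 1.5% of all windows. Cdkn1b shares the CCAAT box, the GC box and the CRE core with lower genes, so these letters do not separate it from them. The windows of the 8 genes held 58.8% to 72% G and C, above the median of 51.2% over all windows.

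Cdkn1a, Cdkn1b and Cdkn1c bind cyclin and kinase pairs and hold cells in G1. Cdkn1a stood at 152, 89.5 and 108 CPM in Sham 1, 2 and 3 and at 31.6, 26.8 and 22.6 in CKD 1, 2 and 3. The lowest Sham library was thus 2.83-fold above the highest CKD library. Its mean fell from 116 ± 32.1 to 27.0 ± 4.53 CPM (SD, n = 3), a log2 fold change of -2.11 with a 95% interval of -2.72 to -1.49.

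Cdkn1b levels were 47.7, 54.1 and 40.1 CPM in Sham and 48.0, 57.7 and 57.98 in CKD. The groups overlapped, and this was the steadiest of the 9 genes, with a coefficient of variation of 14.8% in Sham and 10.4% in CKD. Its log2 fold change was 0.21, with an interval from -0.25 to 0.67, so neither a rise nor a fall is shown. Cdkn1c was at 14.7, 48.8 and 23.2 CPM in Sham and at 37.5, 44.2 and 60.8 in CKD. Sham 1 was low and Sham 2 lay inside the CKD range, giving a log2 fold change of 0.72 with an interval of -0.29 to 1.73. It was 1.29 without Sham 2 and 0.35 without Sham 1.

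Set against each other per length (CPM per kb of the gene model), Cdkn1a was the most abundant inhibitor in every Sham library and the least abundant in every CKD library. Its share of the 3 was 65.2%, 40.9% and 57.2% in Sham and 22.7%, 17.2% and 13.2% in CKD. Cdkn1b took 46.3%, 49.9% and 45.6% in CKD, against 27.5%, 33.3% and 28.6% in Sham. Such shares are taken within a library and so do not depend on the scaling between libraries. The ratio of Cdkn1b to Cdkn1a ran from 0.42 to 0.81 in Sham and from 2.04 to 3.45 in CKD, with no overlap. The summed level of the 3 inhibitors was 90.4 ± 9.61 CPM per kb in Sham and 65.8 ± 6.62 in CKD (SD, n = 3), 1.37-fold apart but only 1.03-fold with library totals as the only scaling.

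**Figure D2:**
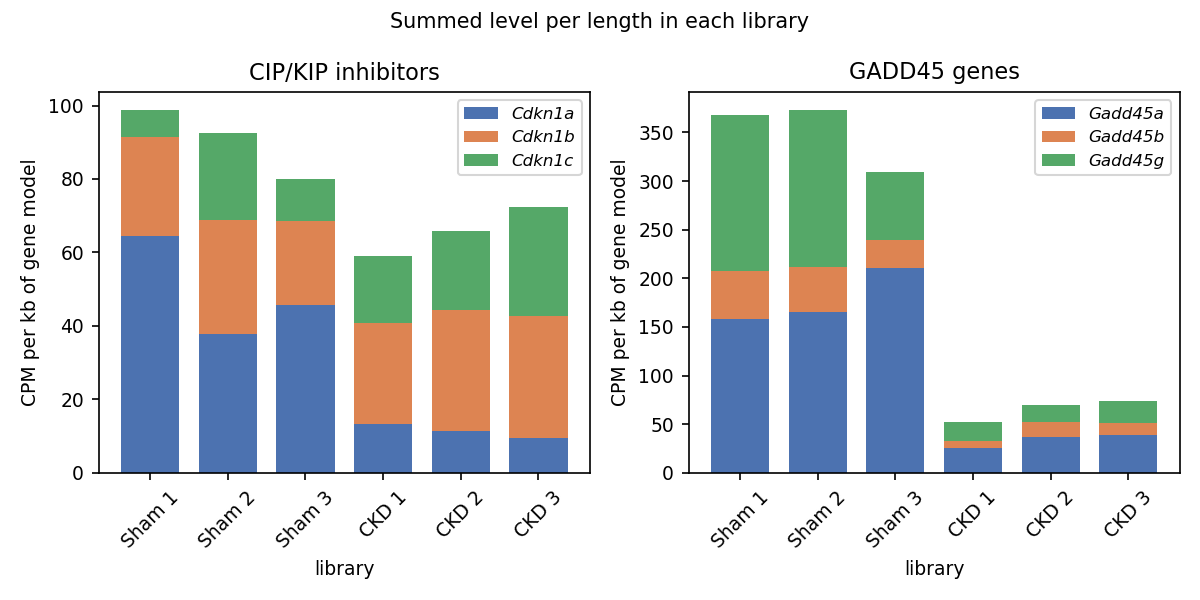
Stacked level per length (CPM per kb of gene model, y axis from 0) of the 3 CIP/KIP inhibitors and of the 3 GADD45 genes in each library (x axis). In the left panel Cdkn1a is the largest part of each Sham bar and the smallest of each CKD bar; in the right panel the whole CKD bars, 52.6 to 74.4, stay below the Sham bars, 309 to 373.

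Gadd45a, first known as a p53 target induced by DNA damage, had the highest mean level per length of the 9 genes in both groups, 178 CPM per kb in Sham and 33.9 in CKD. It stood at 338, 354 and 450 CPM in Sham and at 54.4, 78.4 and 84.1 in CKD. Every Sham library was at least 4.02-fold above every CKD library, and the mean fell from 381 ± 60.9 to 72.3 ± 15.8 CPM (log2 fold change -2.40 ± 0.28, SE).

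Gadd45g, which cytokines induce, stood at 190, 192 and 83.5 CPM in Sham and 23.5, 20.7 and 27.7 in CKD. Sham 3 was low among the Sham libraries but remained 3.02-fold above the highest CKD library. Its log2 fold change was -2.70 ± 0.36 (SE), and -3.06 without Sham 3. Gadd45b, which TGF-beta and NF-kB induce, was at 63.5, 58.6 and 36.0 CPM in Sham and at 9.46, 20.6 and 15 in CKD. Here the nearest libraries, Sham 3 and CKD 2, were 1.75-fold apart, and the log2 fold change was -1.81 ± 0.35 (SE).

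The summed level of the 3 genes fell from 350 ± 35.3 to 65.7 ± 11.6 CPM per kb (SD, n = 3), 5.33-fold, or 3.98-fold with library totals alone. The share of Gadd45a in that sum overlapped between groups, at 43.1% to 68.2% in Sham and 48.5% to 53% in CKD, as did that of Gadd45g. The shares of Gadd45b did not overlap, at 9.1% to 13.4% in Sham and 14.0% to 22.9% in CKD. All 3 genes were thus lower together, and within Sham the library 3 differed from the others in having less Gadd45g and Gadd45b and more Gadd45a.

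Btg2 binds the CCR4-NOT deadenylase and slows the passage from G1 to S. It stood at 305, 249 and 338 CPM in Sham and 51.8, 122 and 40.3 in CKD. CKD 2 was the high CKD library, and it lay 2.05-fold below the lowest Sham library. The log2 fold change of -2.06 ± 0.44 (SE) was -2.69 without CKD 2.

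CKD 2 was also the CKD library with the most Gadd45b. The immediate early factors Fos and Egr1 were at 62.2 and 212 CPM in CKD 2, against 5.28 to 8.06 and 36.5 to 37.5 in the other CKD libraries. The part of these factors in the Btg2 and Gadd45b values was not tested.

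Plk3, a stress-responsive polo-like kinase, differed most of the 9 genes. It stood at 73.4, 54.8 and 133 CPM in Sham and 10.7, 8.79 and 8.25 in CKD, so that the nearest libraries were 5.12-fold apart. The counts behind these were 1101, 785 and 1883 in Sham and 222, 177 and 161 in CKD. Its mean fell from 86.9 ± 40.6 to 9.25 ± 1.29 CPM (SD, n = 3), a log2 fold change of -3.23 with an interval of -4.08 to -2.39. By fold change it ranked 103 from the bottom of the 15371 genes tested.

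Mdm2 stood at 56.2, 73.2 and 78.7 CPM in Sham and 44.2, 38.9 and 32.5 in CKD. The groups did not overlap, but the nearest libraries were only 1.27-fold apart. Its log2 fold change of -0.85 ± 0.22 (SE) did not pass in edgeR (adjusted p = 0.0703), passed in DESeq2 (adjusted p = 0.0109), and was -0.42 with library totals alone. Per length, Mdm2 stood at 1.002 to 1.039 times Cdkn1a in the CKD libraries and at 0.27 to 0.59 times in the Sham libraries.

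For the 6 genes that passed, the edgeR adjusted p was 0.0278 for Cdkn1a, Gadd45a and Plk3, 0.0285 for Gadd45g, 0.0415 for Gadd45b and 0.0484 for Btg2. The number of calls changed when a library was left out, which also cut its group to 2. With Sham 2, CKD 1 or CKD 2 left out, 0 of the 9 genes passed in edgeR, although 8 (Cdkn1c, higher, among them), 7 and 7 had an unadjusted p under 0.05, and the adjusted p of the 6 genes was then at most 0.205. Without Sham 3 only Gadd45g and Plk3 passed, and without CKD 3 Cdkn1a, Gadd45a, Gadd45g and Plk3. Without Sham 1, 7 of the 9 passed, with Mdm2 added. The fold changes moved too. With each library left out in turn the log2 value ran from -2.31 to -1.91 for Cdkn1a. It ran from -2.52 to -2.22 for Gadd45a and from -3.51 to -2.86 for Plk3. The ranges were -2.10 to -1.56 for Gadd45b, -3.06 to -2.56 for Gadd45g and -2.69 to -1.77 for Btg2. They were -1.025 to -0.73 for Mdm2, 0.04 to 0.30 for Cdkn1b and 0.35 to 1.29 for Cdkn1c. All 9 genes kept the sign of their fold change in each of the 17 alternative analyses. For the 7 genes whose groups did not overlap, leaving out a library could hardly change that sign.

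**Figure D3:**
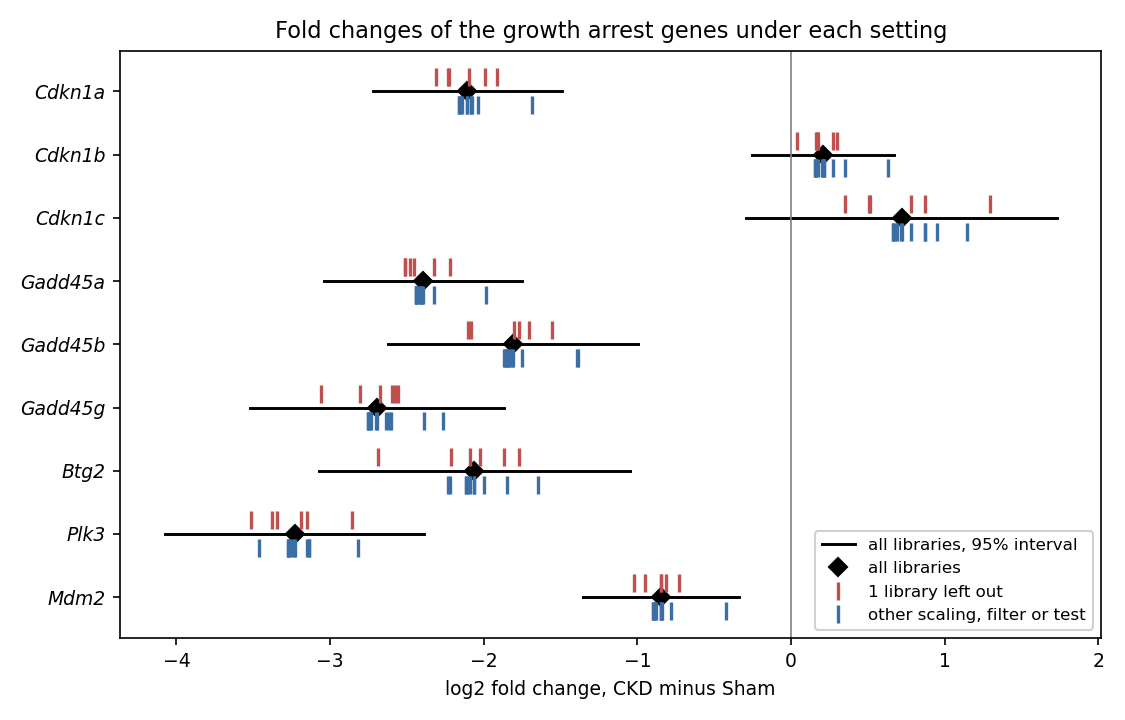
Log2 fold change of each gene, CKD minus Sham (x axis), with all libraries (diamond, line for the 95% interval), with 1 library left out (red ticks) and with another scaling, filter or test (blue ticks). The intervals of 7 genes lie below 0, from Mdm2 at -0.85 to Plk3 at -3.23, and those of Cdkn1b and Cdkn1c cross it.

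After each gene's mean over the 6 libraries was taken off its log2 CPM, pairs of genes were compared by the root mean square difference of their profiles, which is 0 for equal profiles. Cdkn1a lay 0.47 from Gadd45a, 0.51 from Btg2 and 0.52 from Gadd45b, but 1.20 from Cdkn1b and 1.67 from Cdkn1c. Cdkn1b and Cdkn1c lay 0.57 apart. Plk3 and Cdkn1c were the farthest pair, at 2.15. Within Sham the lower genes did not rise and fall as a block: library 1 had the most Cdkn1a, and library 3 the most Plk3, Gadd45a and Btg2.

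**Figure D4:**
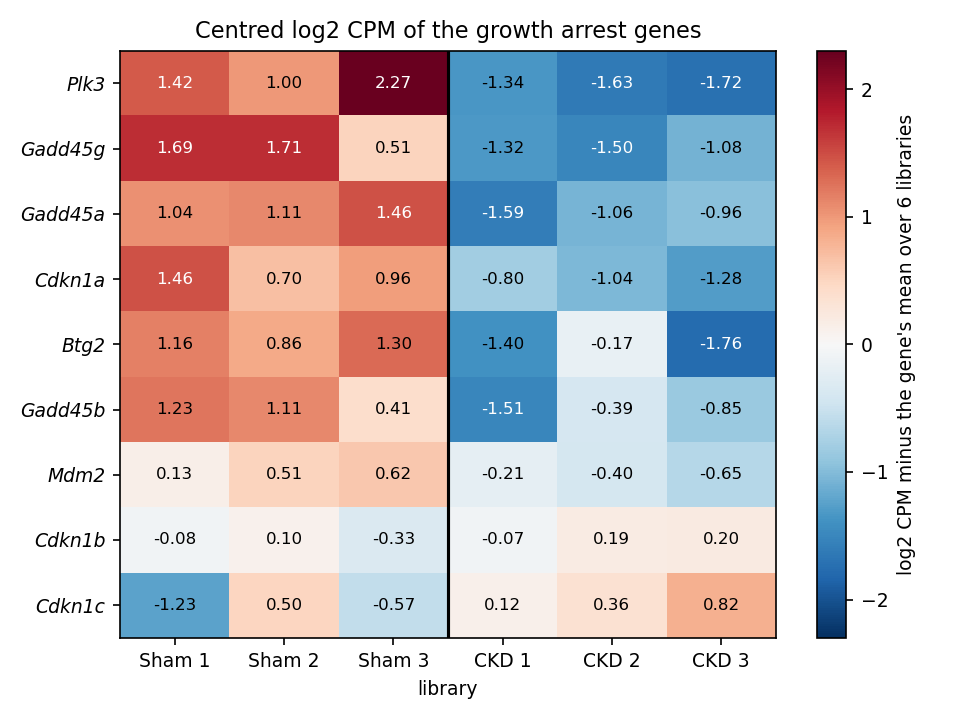
Centred log2 CPM (colour and printed value, log2 units) of the 9 genes (rows) in the 6 libraries (columns), red above and blue below the gene's own mean. Plk3 spans the widest range, from -1.72 in CKD 3 to 2.27 in Sham 3, and Cdkn1b the narrowest, from -0.33 to 0.20.

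By a rule stated with the processing, the genes outside the set whose profile lay nearest to that of Cdkn1a were Spata2L (0.25), Srxn1 (0.27), Cebpb (0.28) and Rgs1 (0.30). Srxn1 encodes sulfiredoxin, Cebpb a transcription factor of the C/EBP family and Rgs1 a regulator of G protein signalling. Their log2 fold changes were -2.28, -2.05, -2.28 and -2.28. All 4 were lower by edgeR's test, with adjusted p = 0.0278, 0.0484, 0.0278 and 0.037, and having been picked for this pattern they are a description only.

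Of the upstream regulators of p53, the damage kinase Atm had a mean of 21.7 CPM (Sham) against 40.5 (CKD), and did not pass in edgeR (adjusted p of 0.0672). Of 29 other p53 target genes tested, 2 rose and 2 fell in edgeR. Apaf1, the scaffold of the apoptosome, rose from 5.67 to 22.9 CPM. Eda2r, a death receptor of the TNF family, had 0 counts in the 3 Sham libraries and 27, 17 and 15 in CKD, at least 4.70-fold higher against a floor of 3 counts per library. Sesn1, a stress-induced regulator of mTORC1, fell from 132 to 38.8 CPM, and the nuclease Aen fell from 26.5 to 11.6. The median of these targets was 0.09, also with Eda2r at its bound. With library totals alone 6 rose and 1 fell. DESeq2 called 4 higher and 6 lower, and limma-voom 1 higher and 1 lower. Without Sham 2 their median was -0.05.

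Of 7 tested genes of INK4 and other cyclin-dependent kinase inhibitors and of the retinoblastoma family, 0 passed in edgeR and in limma-voom. At an unadjusted p under 0.05, 2 were higher in edgeR, 3 in limma-voom, and 0 lower in both. DESeq2 called 1 higher. In edgeR, 3 were higher with library totals alone and 2 without Sham 1. Cdkn2b, the p15 inhibitor, was at 0.20 CPM in Sham and 1.66 in CKD (edgeR adjusted p = 0.0672), and Rbl1, encoding p107, at 4.61 and 9.23 (edgeR adjusted p = 0.144). Cdkn2a, the p16 and p19 locus and the usual mark of senescence, had 0 counts in each Sham library and 2, 1 and 3 in CKD, too few to test.

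Of 15 genes of G1 cyclins, kinases and E2F factors 0 passed in edgeR and in limma-voom, with 4 higher and 1 lower at an unadjusted p under 0.05. DESeq2 called 2 higher and 1 lower. Beside the counts in this and the other lists, 3655 of all 15371 genes had such a p in edgeR. DESeq2 called 2440 of all 18045 genes it tested. In edgeR, 3 were higher with library totals alone, and 1 higher and 1 lower without Sham 1. Cdc25a, a phosphatase that p21 opposes, stood at 39.0 and 21.2 CPM in Sham and CKD, and Cdk4 at 45.1 and 78.4 (edgeR adjusted p = 0.0539 and 0.0713). Of 14 genes of G2 and mitosis 0 passed in edgeR, DESeq2 and limma-voom, with 3 higher and 0 lower at an unadjusted p under 0.05 in edgeR and a median of 0.95, which was 0.30 without CKD 1 and 0.53 without Sham 1. The log2 fold changes of Ccnb1 and Top2a were 1.85 and 1.38 (edgeR adjusted p = 0.158 and 0.20). The summed CPM of this list was 50.6, 67.6 and 62.4 in Sham and 149, 63.5 and 57.6 in CKD, so that only CKD 1 stood above the Sham libraries.

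MAP kinases downstream of the GADD45 proteins had a median of -0.42 (-0.001 with library totals alone), with 0 of 11 past the threshold in edgeR and in limma-voom. At an unadjusted p under 0.05, 4 were lower in edgeR and 3 in limma-voom, and DESeq2 called 3 lower. Without Sham 1 their median was -0.84 and 4 were lower in edgeR, and without Sham 2 the median was -0.04. For Map2k3 the log2 fold change was -1.03 and for Mapk8 -0.91 (edgeR adjusted p = 0.0637 and 0.0933). Of 8 other BTG and TOB genes and CCR4-NOT subunits 0 passed in edgeR, DESeq2 and limma-voom (1 higher and 1 lower at an unadjusted p under 0.05 in edgeR), and their median was -0.17, or 0.26 with library totals alone. Fold changes (log2) were 0.71 for Cnot8, with an edgeR adjusted p of 0.158, and -0.71 for Btg3, with one of 0.165. Of 13 tested senescence-associated genes 1 rose in edgeR, the macrophage elastase Mmp12, from 0.35 to 5.18 CPM, and the median was 0.38. DESeq2 called 4 higher and limma-voom 0 (1 with library weights), and edgeR called 0 with mitochondrial genes removed.

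**Figure D5:**
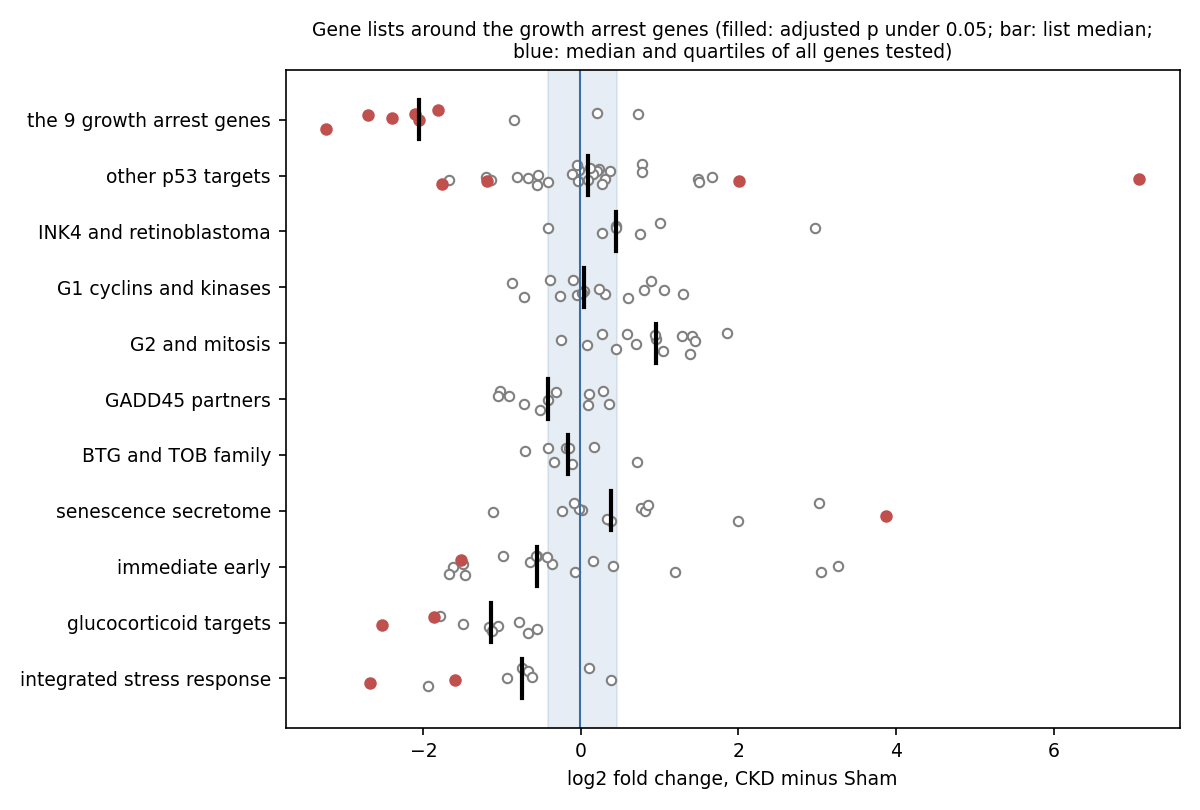
Log2 fold change, CKD minus Sham (x axis), of each tested gene in the growth arrest set and in 10 related lists (rows; filled points passed edgeR's adjusted p of 0.05, black bars are medians, blue line and band the median and quartiles of all genes tested). Other p53 targets scatter on both sides of 0 around a median of 0.09; the point near 7 is Eda2r, whose fitted value depends on the 0 counts in Sham.

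Further lists hold genes induced by growth factors, hormones or cell stress. Of 17 tested immediate early and fast feedback genes, 1 fell in edgeR, the mRNA-destabilising protein Zfp36 (296 to 103 CPM), and the median was -0.55; DESeq2 called 2 higher and 6 lower. Of 10 glucocorticoid receptor targets all had a negative fold change and 2 fell in edgeR, the clock gene Per1 (356 to 97.9 CPM) and Errfi1 (2303 to 401 CPM), an inhibitor of EGF receptor signalling; the median was -1.15, and DESeq2 called 7 lower. Of 9 tested targets of the integrated stress response 2 fell in edgeR, Ddit4 (137 to 45.1 CPM) and Chac1 (3.61 to 0.56 CPM), and the median was -0.74; DESeq2 called 4 lower. Junb and Ppp1r15a are listed at 0 in all 6 libraries. Lower calls in limma-voom were 0, 2 and 0 in these 3 lists, or 1, 3 and 2 with library weights. In edgeR with mitochondrial genes removed they were 2, 2 and 0. In edgeR 0 genes of these 3 lists passed without Sham 2, Sham 3, CKD 1, CKD 2 or CKD 3. Without Sham 1 the lower calls in edgeR were 3, 4 and 4, and 2 immediate early genes were called higher. With library totals alone the medians of the 3 lists were -0.13, -0.74 and -0.315. In that setting 2 immediate early genes were called higher and 1 lower. The part of these programmes in the values of the 9 genes was not tested.

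Summed CPM of 8 macrophage markers ran from 71.0 to 173 in Sham and from 263 to 558 in CKD (3 of 8 higher, 0 lower in edgeR). That of 8 fibroblast and mural markers ran from 124 to 492 and from 796 to 1287 (1 of 8 higher). In that list Col1a1 rose from a mean of 27.35 to 205 CPM. The mural genes Rgs5 (27.1 and 30.4) and Acta2 (32.0 and 34.0) hardly differed. The sum of 7 lymphocyte markers ran from 5.14 to 5.94 and from 14.1 to 26.2 (1 of 6 tested higher). Proximal tubule markers overlapped between groups (6886 to 20390 and 9760 to 14270 CPM over 8 genes), while 6 collecting duct markers ran from 617 to 2365 and from 377 to 414 and 6 thick limb and distal markers from 4485 to 9753 and from 2234 to 4393. In both of the last lists 0 genes passed in edgeR (4 and 1 lower at an unadjusted p under 0.05; 4 and 1 lower in DESeq2; 0 in limma-voom). Markers of each listed nephron segment were thus detected in all 6 libraries. Summed hepatocyte markers ran from 1.87 to 4.575 CPM in Sham and from 10.7 to 48.8 in CKD (1 of 1 tested higher in edgeR). That gene was Fgb, at a mean of 2.12 CPM in Sham and 25.4 in CKD, which made up most of the CKD sums. The others were too low to test: Alb at 0.14 and 0.15, Apoa1 at 0.70 and 0.10, Cps1 at 0.04 and 0.21. Ttr and Serpina1 stood at 0 in all libraries. Summed adrenal markers ran from 5.49 to 11.2 CPM in Sham and from 1.54 to 2.56 in CKD (0 of 2 tested passed in edgeR). These sums were mostly Star (mean 3.89 in Sham, 1.20 in CKD) and Hsd3b1 (4.44 and 0.40). The other adrenal markers were too low to test or absent, with Cyp11a1 at 0.23 and 0.25 and Dbh at 0.02 and 0.13. Th (0.07 and 0) and Pnmt (0.20 and 0.05) were lower in CKD, and Chga stood at 0. The Sham libraries were unlike: Sham 2 had the lowest proximal tubule sum, 6886 CPM against 20390 and 19510 in Sham 1 and 3. It also had the highest collecting duct sum, 2365 CPM against 617 and 688. Mitochondrial genes took 37.9% of counts in Sham 2, 14.4% and 15.3% in the other Sham libraries and 8.8% to 10.8% in CKD. With these genes removed the same 6 of the 9 genes passed. The part of cell make-up in the levels of the 9 genes was not tested.

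In the coordinates of the deposited table Cdkn1a lies on chromosome 20 from 7149217 to 7159585, Gadd45a on chromosome 4 from 96154789 to 96157115, Gadd45g on chromosome 17 from 13376839 to 13378610 and Plk3 on chromosome 5 from 130607142 to 130612317. Their build is uncertain, since Rnor_6.0 stands in the processing notes but not in the file, and these positions are not those of GRCr8 used for the sequences.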

How the data were processed

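RNA was isolated with TRIzol and sequenced from VAHTS libraries, per the labels' protocols. The authors deposited unnormalized counts for each gene, beside gene lengths and positions. HTSeq 0.11.2, HISAT2 2.1.0, fastp 0.20.1 and the build Rnor_6.0 are listed, without roles, per the submitters' processing notes. Whether counting used strand was not stated there, so antisense and overlapping genes cannot be told apart. Columns were matched to samples by title, and 0 belonged to other series. Genes added to the annotation took 0.457% to 0.607% of counts and were kept.

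The members and gene lists were chosen with earlier results of these data known. Counts were filtered with filterByExpr (minimum count 10, total 15), scaled by TMM factors and tested with edgeR 4.0.16 (quasi-likelihood, robust, R 4.3.3), with Benjamini-Hochberg adjustment over 15371 genes and a threshold of 0.05. The SE is the absolute log2 fold change over the root of F, and intervals are 95%. CPM use TMM library sizes, with a prior count of 2 on the log2 scale. Profiles nearest to Cdkn1a were ranked by root mean square difference over 6 libraries, among tested non-members with a symbol and an average log2 CPM of at least 3. In each list other than the markers, genes that passed were named, and otherwise the 2 of smallest p. Genes named outside that rule (Cdkn2a, Fos, Egr1, Junb, Ppp1r15a and the named marker genes) were chosen after their values were seen. Alternatives were other scalings and filters, DESeq2 1.42.0, limma 3.58.1 (voom), a replicate block, removal of mitochondrial genes, and each library left out. Some items, among them 2 gene lists, are not reported here.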

Additional observations from a re-analysis of the deposited data

How the results depend on the processing

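All 9 genes kept the direction of their fold change in all 17 alternatives. Leaving out a library could hardly reverse the 7 genes whose groups did not overlap. Medians of some gene lists changed sign: that of BTG and TOB genes was 0.26 with library totals alone, and that of other p53 targets -0.05 without Sham 2. Over all genes, 587 passed (411 higher, 176 lower). With library totals alone 2228 passed and 2047 were higher. DESeq2 called 2440 (1356 higher, 1084 lower), limma-voom 195 (120 higher, 75 lower), and limma-voom with library weights 186 higher and 301 lower. Leaving out each library in turn gave 0 to 1711 genes (0 to 789 higher, 0 to 922 lower) and 0 to 7 of the 9 genes. No gene passed in edgeR without CKD 1 or without CKD 2 (2330 and 2312 at an unadjusted p under 0.05), 2 passed without Sham 2 and 7 without Sham 3. With a replicate block, 10 genes passed (4 higher, 6 lower) and 0 of the 9 genes (7 at an unadjusted p under 0.05). Same-numbered libraries were not treated as pairs, since the labels do not say what a replicate number marks. The correlations of their deviations were -0.206, 0.005 and -0.157. With so few libraries per group, these values cannot show whether they were pairs. The share of calls that were higher, 70%, was 38.2% with library weights and 46.1% without Sham 1. Counts of the 9 genes ran from 161 to 6398 per library, and the effect of depth was not tested.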
